A study of Mus musculus with 6 samples.

Results

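The loci described here are microRNA genes linked to inflammation and the longer transcripts that carry them: Mir155 and its host Mir155hg, Mir147 and its host AA467197, Mir221, Mir222, Mir146, Mir21a, Mir22hg and Mir17hg. A row of the value table, called a transcript cluster because it pools the probes of 1 transcription unit, was taken where the platform annotation lists any of these 10 symbols. This gave 8 of the 41345 rows. Of these, 3 carry 1 symbol (Mir221, Mir222 and Mir146) and 5 carry several, so that Mir155 cannot be told from Mir155hg, Mir147 from AA467197, Mir21a from the gene Vmp1 around it, Mir22hg from Mir22 and Tlcd2, or Mir17hg from Mir19b-1 and Mir92-1. The loci were proposed with the differences between LPS and control already known. Their levels and differences are therefore given as a description, with no test.

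The cells were BV-2, a mouse microglial line transformed by a retrovirus that carries viral raf and a gene the labels write as v-mic. Microglia are the macrophages that live in brain tissue. A control group (3 arrays, labelled resting) was compared with a group given lipopolysaccharide (LPS) of Escherichia coli O111:B4, a bacterial cell wall component sensed by Toll-like receptor 4, at 1 µg/mL for 24 h (3 arrays). Both groups share the viral oncogenes. No vehicle or collection time is named for the control in the labels. Replicates are numbered 1 to 3 in each group, and no label says whether they were separate cultures, so errors and p-values measure only the scatter of these arrays and may be technical. Values are log2 expression as deposited, and a difference of 1 is a 2-fold change.

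MicroRNAs are short RNAs that guide Argonaute proteins to messenger RNAs, mostly through the seed, bases 2 to 8 of the mature strand, and lower the amount or translation of the target. They are cut from a long primary transcript, first by Drosha and Dgcr8 in the nucleus into a hairpin and then by Dicer1 in the cytoplasm. In macrophages, Toll-like receptor signalling is known to turn on transcription of the miR-155, miR-146a, miR-147 and miR-21 genes, and miR-155 is known as a promoter and miR-146a as a brake of the inflammatory response. The array labels cDNA of total RNA, so a row here reads the primary transcript, the hairpin or the host, and the mature strand was not measured.

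The mature strands are printed to show which of the loci could act on the same targets; the seed is in capitals, and the sequences are those of RefSeq (GRCm38.p6), which held a hairpin for 6 of the 10 symbols. For Mir147 only the 5p strand had an entry and is shown. The sequence of miR-147-3p was missing, so its seed was not compared with the others. For Mir17hg, the strands are those of the cluster of hairpins around it, called the miR-17 cluster here.
miR-155-5p: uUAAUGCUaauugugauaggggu
miR-147-5p: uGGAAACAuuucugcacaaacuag
miR-221-3p: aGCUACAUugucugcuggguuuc
miR-222-3p: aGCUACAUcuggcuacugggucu
miR-146a-5p: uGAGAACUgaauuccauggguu
miR-21a-5p: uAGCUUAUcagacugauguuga
miR-22-3p: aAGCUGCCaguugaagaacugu
miR-17-5p: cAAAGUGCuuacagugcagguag
miR-20a-5p: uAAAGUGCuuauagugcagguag
miR-18a-5p: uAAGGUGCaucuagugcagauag
miR-19a-3p: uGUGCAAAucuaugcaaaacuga
miR-19b-3p: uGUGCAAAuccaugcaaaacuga
miR-92a-3p: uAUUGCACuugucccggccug
The strands of Mir221 and Mir222 share the seed GCUACAU, are identical over the first 8 bases and match at 11 of 23 positions counted from the 5′ end. Their hairpins lie 504 bases apart on chromosome X. Of the 1738 mature entries searched, only miR-1928 has the same seed besides these. The seeds of miR-155-5p, miR-147-5p and miR-22-3p occurred in no other mature entry, that of miR-146a-5p in miR-146b-5p, and that of miR-21a-5p in miR-21c. Within the miR-17 cluster, miR-17-5p and miR-20a-5p share AAAGUGC and miR-19a-3p and miR-19b-3p share GUGCAAA.

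The hairpins of the loci with the largest differences show what a precursor of each looks like, with the mature strands that RefSeq lists in capitals.
Mir155 hairpin: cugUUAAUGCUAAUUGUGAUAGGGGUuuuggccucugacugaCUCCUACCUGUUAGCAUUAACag
Mir147 hairpin: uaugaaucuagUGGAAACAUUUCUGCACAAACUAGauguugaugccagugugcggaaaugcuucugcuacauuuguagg
The Mir155 hairpin lies at chr16:84714140-84714204 on the plus strand, inside Mir155hg. The Mir147 hairpin lies at chr2:122640803-122640881 on the plus strand, inside AA467197. Both were read on the array only together with their hosts.

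All 8 rows had a higher mean in LPS than in control, by a median of 1.04 on the log2 scale against 0.03 over all rows of the table. In 7 of the 8 rows every LPS array lay above every control array, which was so for 7.74% of all rows (and the reverse for 3.48%). In a limma fit over the whole table, 2 of the 8 rows, those of Mir155 with Mir155hg and of AA467197 with Mir147, passed a Benjamini-Hochberg adjusted p of 0.05 as higher, 0 passed as lower, and 0.193% of all rows passed as higher. Without control replicate 1 or LPS replicate 2, 0 of the 8 passed; without control replicate 2 it was 2, and without any other single array 1, the AA467197 row. Since the loci were chosen from this contrast, nothing is read from these counts. A guide value for background was taken from 1438 chemosensory receptor rows (smell, pheromone and taste), whose means had a 95th percentile of 3.09.

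**Figure D1:**
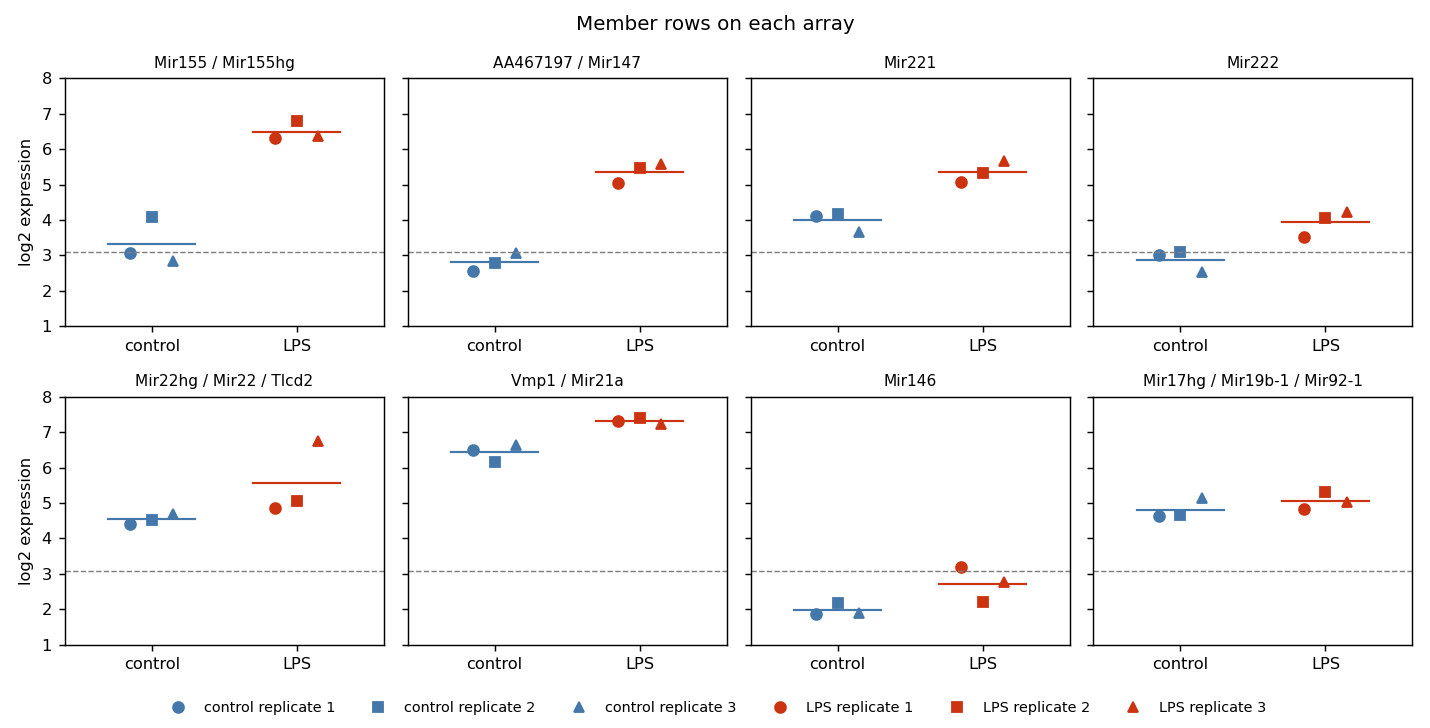
Log2 expression of the 8 rows on each of the 6 arrays, with control arrays in blue, LPS arrays in red, a marker shape per replicate number and a bar at each group mean; the dashed line is the 95th percentile of receptor rows, 3.09. The groups do not overlap except for Mir17hg, and the Mir146 row lies at or under the dashed line on 5 of 6 arrays.

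The row of Mir155 with Mir155hg had the largest difference. Mir155hg, also known as Bic, is the noncoding transcript from which miR-155 is cut. Its log2 expression was 3.06, 4.08 and 2.83 in control replicates 1 to 3 and 6.31, 6.81 and 6.37 in LPS replicates 1 to 3. The LPS arrays lay close together, the lowest of them 2.23 above the highest control, and the controls were spread, with control replicate 2 high and the other 2 under the receptor guide value. The means were 3.33 ± 0.66 and 6.50 ± 0.27 (SD, n = 3), a difference of 3.17 (SE 0.34) or 9.0-fold. Because the control signal is near background, the fold rests on a low denominator. The difference was 3.55 without control replicate 2 and between 2.92 and 3.26 without any other single array.

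The row of AA467197 with Mir147 had the next largest. AA467197, also called Nmes1, codes for a small mitochondrial protein related to the respiratory chain subunit Ndufa4, and its transcript also carries the miR-147 hairpin. The control arrays read 2.55, 2.79 and 3.06 and the LPS arrays 5.05, 5.47 and 5.57. All controls were under the receptor guide value and all LPS arrays were well over it, with a gap of 1.99 between the groups. The means were 2.80 ± 0.26 and 5.36 ± 0.28 (SD, n = 3), a difference of 2.57 (SE 0.21). No fold is given, since the control signal is not above the guide value. With 1 array left out the difference ran from 2.44 to 2.72. Signal from the coding host and from the microRNA precursor cannot be told apart in this row.

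Mir221 and Mir222 are cut from a shared primary transcript and were read on separate rows. Control values of Mir221 were 4.12, 4.16 and 3.67, and LPS values 5.08, 5.32 and 5.67. Those of Mir222 were 3.0, 3.1 and 2.54 in control and 3.51, 4.06 and 4.23 after LPS. In both rows control replicate 3 was the lowest array and LPS replicate 3 the highest, and no LPS array reached down to a control. For Mir221 the means were 3.98 ± 0.27 and 5.35 ± 0.30 (SD, n = 3), a difference of 1.37 (SE 0.22) or 2.59-fold. For Mir222 they were 2.88 ± 0.30 and 3.93 ± 0.37, a difference of 1.05 (SE 0.25), with a control mean under the guide value. The 2 rows were the most alike of any pair among the 8: after each was centred on its own mean, they deviated from each other by 0.18 (root mean square over the 6 arrays), against 0.36 to 1.54 for the other pairs.

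The row that holds Mir21a is shared with Vmp1, a membrane protein gene of autophagy whose annotated span contains the Mir21a hairpin. Control arrays read 6.51, 6.17 and 6.64, and LPS arrays 7.33, 7.4 and 7.24. The LPS arrays lay within a narrow band above all controls. The means were 6.44 ± 0.24 and 7.32 ± 0.08 (SD, n = 3), a difference of 0.88 (SE 0.16) or 1.84-fold. A second row named for Vmp1 alone went from 3.23 ± 0.34 to 4.05 ± 0.32, by 0.82 (SE 0.24; limma adjusted p = 0.50), without overlap of the groups. The table has no row for Mir21a alone, so a change of its own precursor cannot be told from that of Vmp1.

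Mir146, the gene of miR-146a, had control values of 1.87, 2.16 and 1.88 and LPS values of 3.19, 2.21 and 2.76. Only LPS replicate 1 lay over the receptor guide value, and LPS replicate 2 was 0.05 above the highest control. The means were 1.97 ± 0.16 and 2.72 ± 0.49 (SD, n = 3), a difference of 0.75 (SE 0.26) on signals near background. The row of Mir146b, whose mature strand has the same seed, went from 2.18 ± 0.18 to 1.99 ± 0.20, also under the guide value, with a difference of -0.19 (SE 0.17, limma adjusted p = 0.99).

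Mir22hg, the noncoding host of miR-22, shares its row with Mir22 and the neighbouring coding gene Tlcd2. Control arrays read 4.41, 4.52 and 4.7, whereas LPS arrays read 4.86, 5.07 and 6.75. LPS replicate 3 stood apart, and the other LPS arrays lay just above the controls. The means were 4.54 ± 0.15 and 5.56 ± 1.04 (SD, n = 3), a difference of 1.02 (SE 0.48) that was 0.42 without LPS replicate 3. That array also had the highest upper quartile of all rows, 5.27 against 4.85 to 5.11 on the others, and its part in this difference was not tested.

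Mir17hg, the host of the miR-17 cluster and a target of Myc, was the row with the smallest difference. Its control values were 4.63, 4.66 and 5.13 and its LPS values 4.83, 5.32 and 5.04, so the groups overlapped. The means were 4.81 ± 0.28 and 5.06 ± 0.24 (SD, n = 3), a difference of 0.26 (SE 0.20), which was 0.13 without LPS replicate 2 and 0.42 without control replicate 3. In RefSeq the record of Mir17hg starts within the cluster and contains the hairpin of Mir92-1. It does not contain that of Mir19b-1, although the annotation lists Mir19b-1 on the same row. Nor does it contain those of Mir17, Mir18, Mir19a or Mir20a, which have rows of their own. Mir17 differed by 0.23, Mir18 by -0.03, Mir19a by -0.01 and Mir20a by 0.23 (SE between 0.13 and 0.22), and 0 of these 4 passed in limma (unadjusted p from 0.20 to 0.95). The 5 rows of the cluster thus had differences between -0.03 and 0.26.

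**Figure D2:**
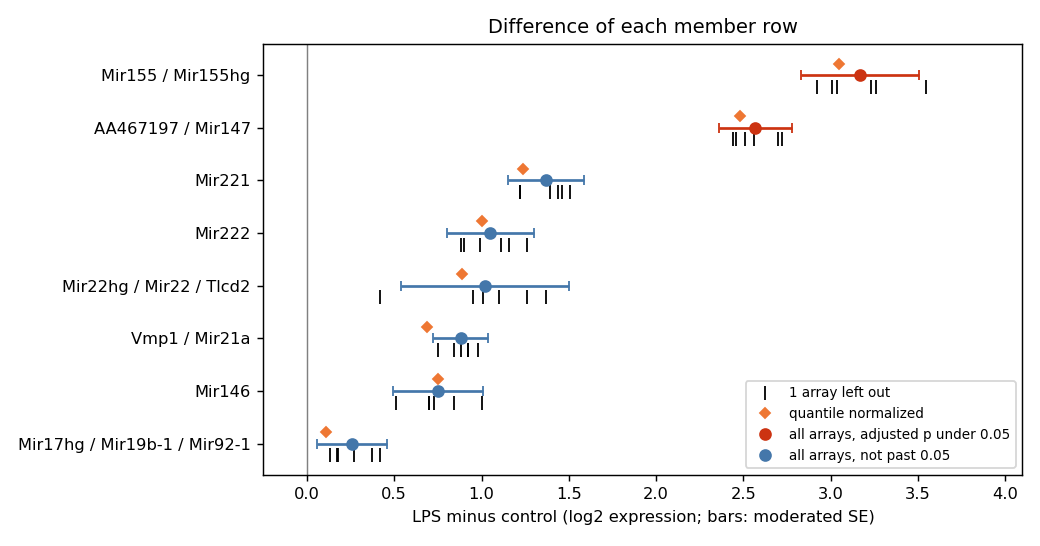
Difference of LPS minus control (log2 expression) for each of the 8 rows, with the moderated standard error as a bar, the values with 1 array left out as ticks under the point and the value after quantile normalization as a diamond above it. The rows of Mir155 and Mir147 lie at 3.17 and 2.57 and the other 6 between 0.26 and 1.37; the Mir22hg tick at 0.42 is the fit without LPS replicate 3.

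In the order of the differences, the Mir155 row (3.17, SE 0.34) and the AA467197 row (2.57, SE 0.21) were followed by Mir221 (1.37, SE 0.22), Mir222 (1.05, SE 0.25), Mir22hg (1.02, SE 0.48), the Vmp1 and Mir21a row (0.88, SE 0.16), Mir146 (0.75, SE 0.26) and Mir17hg (0.26, SE 0.20). From Mir222 to Mir146, neighbours differed by less than either standard error. Quantile normalization lowered the difference of the Vmp1 and Mir21a row to 0.69 and that of Mir17hg to 0.11, and no alternative turned the direction of any of the 8.

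Most other microRNA genes on the array read low and differed little. Of the 639 further rows with a microRNA symbol, 508 carry 1 symbol. These had a median level of 2.31, and 156 of them had a mean above the receptor guide value. The rest carry several symbols, some with a coding gene such as Ddx5 or Scd2, whose signal cannot be told apart. All 639 rows had a median level of 2.45, and 235 of them (36.8%) had a mean above the guide value. Several of the 639 repeat the same mean and difference, such as rows of Mir669a-1 with Mir669a-2 and Mir669a-3. Over the whole table, 1396 rows share all 6 values with another row. The counts and percentiles given for the 639 rows therefore do not come from separate readings throughout. Differences of the 639 rows had a median of 0.03, with 90% of them between -0.34 and 0.33, and 0 passed in limma with all arrays (lowest adjusted p 0.59), while 8 were higher and 11 lower at an unadjusted p under 0.05, a level that 4.98% of all rows of the table passed as higher and 1.4% as lower. All LPS arrays lay above all controls in 4.07% of these rows and below them in 3.13%. Differences beyond 1 were found in 4 rows, named after their values were seen: 1.82 for Mir3069 with the small RNA gene Scarna13, 1.03 for Mir1938, -1.14 for Mir1970 and -1.17 for Mir1981, and in each of them the groups overlapped.

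**Figure D3:**
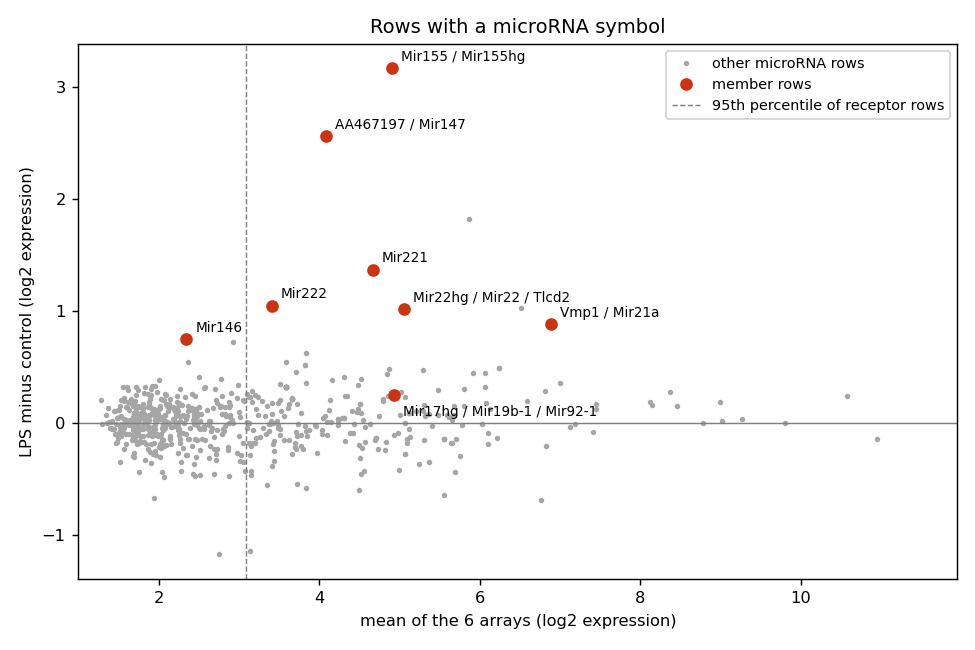
Difference of LPS minus control against the mean of the 6 arrays (both log2 expression) for all rows with a microRNA symbol, the 8 described here in red and the 639 others in grey; the dashed line is the 95th percentile of receptor rows. Most grey points lie left of the line and near 0, and the row at 1.82 is that of Mir3069 with Scarna13.

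A list of 47 other microRNA genes linked to Toll-like receptor signalling or macrophages had 34 members with a row of their own. Of these 0 passed in limma, and 1 was higher and 1 lower at an unadjusted p under 0.05 (4.98% and 1.4% of all rows). Their median difference was -0.01, and 15 of the 34 had a mean above the guide value. The members with the highest mean were Mir15a, which went from 6.06 ± 0.30 to 6.19 ± 0.85, and Mir210, known as a target of hypoxia signalling, from 5.91 ± 0.49 to 6.23 ± 0.59 (SD, n = 3; adjusted p = 1.00 for both). LPS replicate 3 had the highest Mir15a value, 7.17, as it did for Mir22hg.

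The machinery that makes and uses microRNAs had 26 of 30 listed genes with a row of their own. None passed in limma, and 6 were higher and 0 lower at an unadjusted p under 0.05, a level passed by 4.98% of all rows as higher and 1.4% as lower. The median difference was 0.18 against 0.03 over all rows, but 0.00 against -0.008 without control replicate 2, 0.28 against 0.053 without control replicate 3, 0.11 against 0.028 without LPS replicate 2 and 0.04 against -0.016 after quantile normalization. Of the 26 genes, 24 had a mean above the receptor guide value, whereas many rows of the table did not. Among only the rows above it, the median was 0.21 for the list against 0.107. Shares at an unadjusted p were not counted for the brighter rows alone. The members with the highest mean were the RNA helicase Ddx5, a cofactor of Drosha, with a difference of 0.20 (SE 0.16, adjusted p = 0.99), and the slicing Argonaute Ago2, with -0.14 (SE 0.31, adjusted p = 1.00). The 6, singled out after their values were seen, were Zc3h12a (1.57, SE 0.29, adjusted p = 0.20), a ribonuclease that cuts cytokine messages and microRNA hairpins, the RNA editor Adar (0.84, SE 0.25), the helicase Mov10 (0.85, SE 0.32), Ago3 (0.73, SE 0.26), Drosha (0.63, SE 0.18) and Dicer1 (0.54, SE 0.20). In these 6 genes every LPS array lay above every control array, as in 7.74% of all rows, and in Tnrc6c, a partner of Argonaute (-0.26, SE 0.13, adjusted p = 0.88), every LPS array lay below, as in 3.48%. Control values of Zc3h12a were 3.87, 3.16 and 3.54, and LPS values 4.67, 5.01 and 5.6.

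Genes reported as targets of miR-155 were looked at in the same fit. Of 15 listed, 13 had a row, 1 rose (0.193% of all rows did), 0 fell and 12 did not pass, while 4 were higher and 0 lower at an unadjusted p under 0.05 (4.98% and 1.4% of all rows). Differences were above 0 for 11 and below 0 for 2, with a median of 0.17. That median was 0.05 after quantile normalization and ran from 0.01 (control replicate 2 left out) to 0.39 (control replicate 3 left out) over the fits with 1 array fewer. Among only rows with a mean above the receptor guide value, it was 0.20 against 0.107 over the table. The gene that rose was Ikbke, a kinase upstream of interferon regulatory factors, from 5.55 ± 0.34 to 7.72 ± 0.25 (SD, n = 3), by 2.17 (SE 0.22, limma adjusted p = 0.030). It is itself known to respond to LPS, and its arrays read 5.84, 5.18 and 5.64 in control and 7.55, 8.01 and 7.61 after LPS. Its call held without control replicate 2 (adjusted p = 0.040) and ended without any other single array (adjusted p from 0.071 to 0.18), over a range of 0.0081 to 0.28 in all alternatives. The other 3 at the unadjusted level, named after their values were seen, were the transcription factor gene Cebpb (1.17, SE 0.39, adjusted p = 0.60), the death domain adaptor gene Fadd (0.61, SE 0.17, adjusted p = 0.47) and the cytokine receptor gene Il13ra1 (0.49, SE 0.20, adjusted p = 0.75). The 2 below 0 were the phosphatase gene Inpp5d (-0.34, SE 0.33) and the chromatin gene Jarid2 (-0.35).

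Reported targets of the other microRNAs had no member past the threshold in limma. For miR-146a, 7 of 8 listed genes had a row, with a median difference of 0.15; the 2 with the highest mean were Numb (-0.54, SE 0.29) and the receptor kinase Irak1 (0.15, SE 0.25), and Irak2, named after its value was seen, had 1.19 (SE 0.22, adjusted p = 0.20). For miR-21, 8 of 10 had a row, with a median of 0.13, and the 2 with the highest mean were the ubiquitin ligase Peli1 (0.95, SE 0.30, adjusted p = 0.58) and Tpm1 (0.34, SE 0.23, adjusted p = 0.97). At an unadjusted p under 0.05 in limma, 2 miR-146a targets and 1 miR-21 target were higher and 0 were lower. Of all rows of the table, 4.98% were higher and 1.4% lower at that level. For miR-221, miR-222, miR-147, miR-22 and the miR-17 cluster, 18 of 18 had a row, with a median of 0.10, and 1 was higher and 0 lower at that level. The 2 of these with the highest mean were the receptor Bmpr2 (0.31, SE 0.14, adjusted p = 0.83) and Ndufa4, a reported miR-147 target. Ndufa4 went from 9.01 ± 0.68 to 8.98 ± 0.02 (SD, n = 3), a difference of -0.02 (SE 0.32, adjusted p = 1.00), with control arrays at 9.62, 8.28 and 9.11. With 1 array left out the median ran from -0.10 to 0.25 for miR-146a, from 0.04 to 0.20 for miR-21 and from -0.02 to 0.23 for the others, each lowest without control replicate 2, and after quantile normalization it was -0.04, 0.06 and -0.07, so the direction of the first and the last was not kept. Over all rows of the table with a mean above the receptor guide value, the median difference was 0.107. The target rows read messenger RNA, so an effect on translation would not be seen.

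Transcription factors described at these loci had 17 of 20 genes with a row. In limma 0 of the 17 passed, against 6 higher and 0 lower with an unadjusted p below 0.05 (4.98% and 1.4% of all rows), and their median difference was 0.48, from 0.32 (without control replicate 2) to 0.68 (without LPS replicate 3) with 1 array left out. Of the 17, 16 had a mean above the receptor guide value, and the median difference of all such rows of the table was 0.107. The 2 factors with the highest mean were the NF-kappaB subunits Rel (1.08, SE 0.31, adjusted p = 0.50) and Rela (0.61, SE 0.22, adjusted p = 0.66). The 3 with the largest differences, named after their values were seen, were Ets2 (1.70, SE 0.33), Nfkb2 (1.66, SE 0.23, adjusted p = 0.084) and Myc (1.66, SE 0.45). Nfkb2 passed without LPS replicate 3 (adjusted p = 0.046) and did not without any other single array, and its adjusted p ran from 0.027 to 0.39 over all alternatives. Myc had control values of 3.05, 3.21 and 3.41 and LPS values of 4.1, 4.61 and 5.94, LPS replicate 3 being the highest. The groups of its target Mir17hg overlapped, and a link between Myc and Mir17hg was not tested. 

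**Figure D4:**
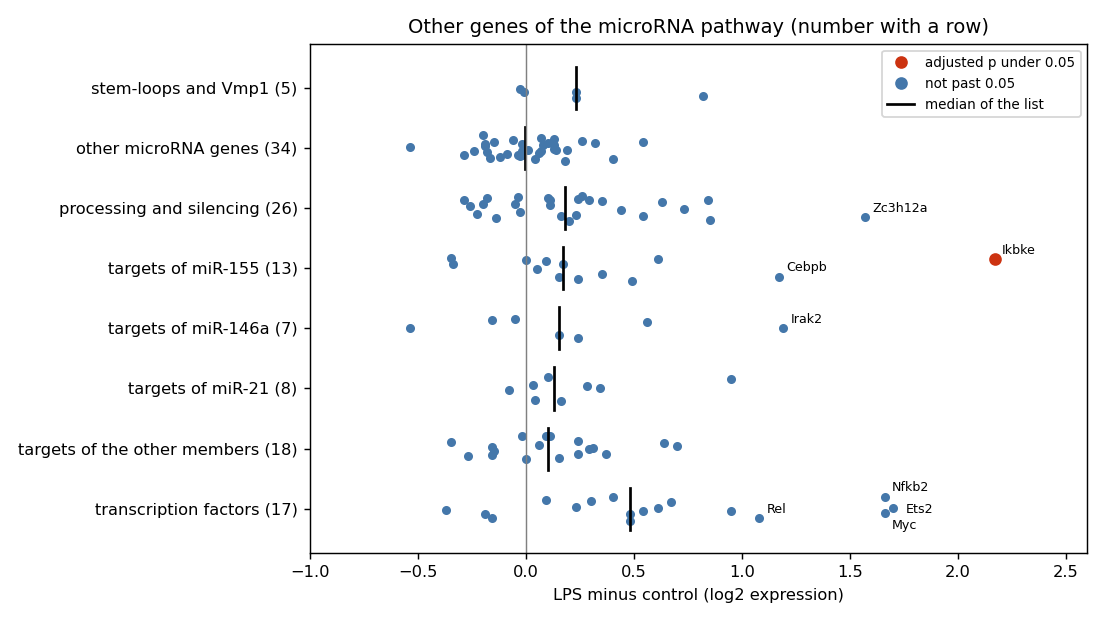
Difference of LPS minus control (log2 expression) for each gene with a row in the 8 lists, with the number of genes in brackets, the list median as a black bar and genes past adjusted p 0.05 in red; names are given for genes beyond 1. Ikbke at 2.17 is the only red point, and the list medians run from -0.01 to 0.48.

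For the rows with the 2 largest differences, the rows of 1 symbol with the closest pattern were looked up, by the root mean square deviation between values centred on each row's mean over the 6 arrays. Closest to the Mir155 row were Zfp811, a zinc finger gene (deviation 0.41), the lectin receptor gene Clec4a1 (0.50), Nfkbia, the inhibitor of NF-kappaB (0.51), the interferon-linked Parp14 (0.52) and the guanylate-binding protein gene Gbp3 (0.53). Their differences were 3.07 for Zfp811, 3.59 for Clec4a1, 2.57 for Nfkbia, 2.98 for Parp14 and 3.07 for Gbp3. These rows were chosen for their likeness to a row that differs between the groups, so no test of them is given. None of the 5 has control replicate 2 as far above the other controls as the Mir155 row does.

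Closest to the AA467197 and Mir147 row were Nfkbia (0.18), the death receptor gene Fas (0.19), Vnn3, a pantetheinase family gene (0.20), the glycolipid receptor gene Clec4e (0.21) and Aoah, the enzyme that removes acyl chains from LPS (0.21). Their differences lay between 2.40 and 2.61, beside 2.57 for the row itself, again with no test. The measure favours rows with a difference of like size, since the groups make up most of the variation over 6 arrays.

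**Figure D5:**
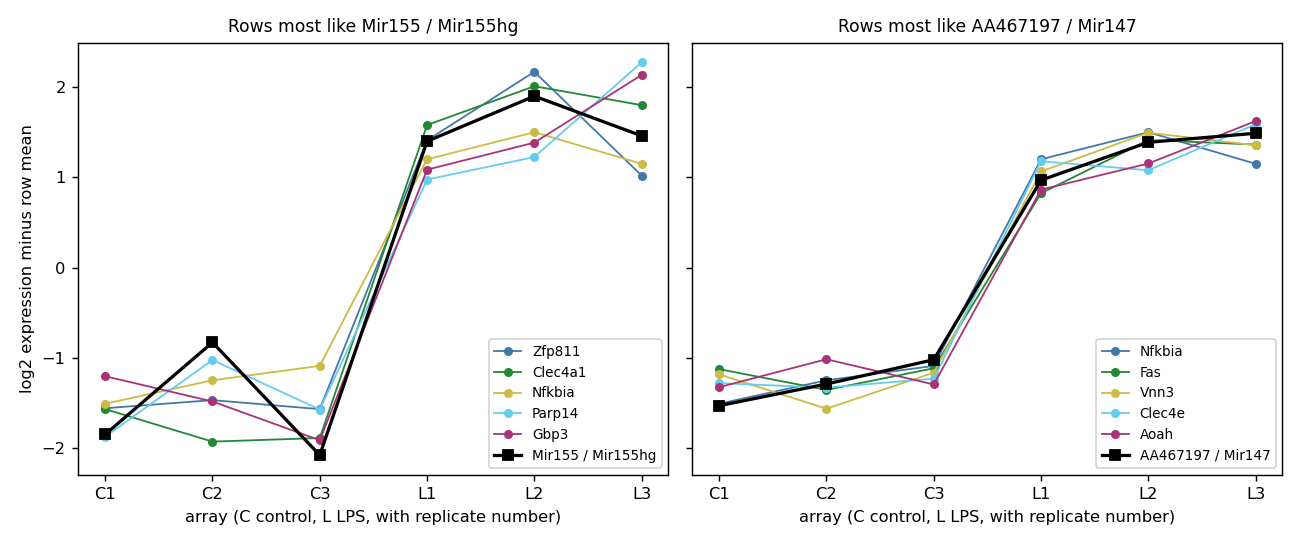
Log2 expression minus the row's own mean on the control (C1 to C3) and LPS (L1 to L3) arrays, for the Mir155 row (left) and the AA467197 row (right) in black and the 5 rows of closest pattern in colour. The lines around AA467197 lie within a narrow band (deviation 0.18 to 0.21), and those around Mir155 are looser (0.41 to 0.53) with the black line highest at C2.

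The promoter windows of the hosts with the 2 largest differences are shown for motifs of NF-kappaB and AP-1. Motifs of Ets2 and Myc were not searched. The AP-1 genes on the list above were Jun (difference 0.40), Junb (0.48), Jund (0.95), Fos (0.09), Fosb (0.54), Fosl2 (0.23) and Batf (0.48). A second, dimmer Jund row had 0.20. RefSeq windows of 250 bases before to 50 after the annotated start were found for 4 of the 10 symbols (Mir155hg, AA467197, Mir22hg and Mir17hg). Each was searched on both strands for an NF-kappaB motif (GGG, any 5 bases, then CC) and an AP-1 motif, TGANTCA, which do not overlap in these windows and are in capitals where found. The AA467197 window is chr2:122637637-122637936 and the Mir155hg window chr16:84712773-84713072, both on the plus strand of GRCm38.p6.
AA467197 window: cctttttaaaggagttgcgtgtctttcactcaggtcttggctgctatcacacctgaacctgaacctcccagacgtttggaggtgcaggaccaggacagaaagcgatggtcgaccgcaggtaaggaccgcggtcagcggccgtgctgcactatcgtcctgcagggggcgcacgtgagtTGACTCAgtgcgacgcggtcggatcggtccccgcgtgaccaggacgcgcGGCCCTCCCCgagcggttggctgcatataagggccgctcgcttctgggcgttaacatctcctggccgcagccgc
Mir155hg window: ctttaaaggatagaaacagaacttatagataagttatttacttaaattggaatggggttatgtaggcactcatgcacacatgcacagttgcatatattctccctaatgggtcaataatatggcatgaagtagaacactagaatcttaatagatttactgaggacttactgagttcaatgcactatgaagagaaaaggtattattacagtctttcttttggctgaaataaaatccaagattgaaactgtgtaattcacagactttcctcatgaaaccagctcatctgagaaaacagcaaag
The AA467197 window holds TGACTCA from position -73 relative to the start and, on the minus strand, an NF-kappaB match from position -24. The AP-1 letters occur in 7.81% and the NF-kappaB letters in 50.8% of the 32851 promoter windows of this length, so the latter is common. Neither set of letters is in the Mir155hg window, which says nothing about sites outside it. The Mir22hg window holds an NF-kappaB match and no AP-1 match. The Mir17hg window holds neither, and lies within the miR-17 cluster, since the record starts there.

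The labelled cell type was checked against markers. All 10 microglia and macrophage markers had a mean above the receptor guide value, and the median of these 10 was between 8.61 and 9.20 on the control arrays and between 8.71 and 9.38 on the LPS arrays; Aif1 was the lowest, with 3.91 ± 0.26 in control. Of 5 neuron, 5 astrocyte, 4 oligodendrocyte, 5 endothelial and 4 lymphocyte markers with a row, 1, 0, 0, 1 and 0 were above it: Rbfox3 at 3.42 ± 0.08 in control and 3.51 ± 0.12 in LPS, and Kdr at 8.99 ± 0.23 in control and 8.67 ± 0.17 in LPS. Array medians ran from 2.88 to 2.97. Control replicate 2 correlated least with the other arrays (Pearson's r over all rows of at most 0.968, against at least 0.973 as the best value of any other array).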

How the data were processed

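RNA of BV-2 cells was hybridised to 6 Affymetrix whole-transcript arrays after labelling with the GeneChip WT PLUS kit, per the labels' protocols. The authors deposited log2 expression values per transcript cluster, and the submitters' processing notes name Affymetrix Expression Console; its version, background correction and normalization are not given in the sources used here, so folds from low signals may be biased. The number of arrays limits the precision. Symbols came from the platform annotation (23521 rows with 1 symbol, 1814 with several, 16010 with none), and sequences from RefSeq. The values were fitted as deposited, without a filter, with limma 3.58.1 in R 4.3.3 (lmFit, eBayes), as LPS against control, with Benjamini-Hochberg adjustment over all 41345 rows. List genes used their brightest row of 1 symbol; genes not matched to such a row were not analysed here. The text names every locus, called list members (up to 4 in each direction) or else the 2 of highest mean, and the 5 closest rows; other names were chosen after their values were seen. The members, lists and alternatives were chosen with earlier results of these data known. The fit was tested on simulated data with the control means and residual spread of these rows. Noise was drawn independently for each row and array, so differences in quality between arrays were not simulated. A log2 change of 1 was called in 9 of 50 rows and a change of 2 in 36 of 50. Of 41145 unchanged rows, 8 were called. A row that did not pass may therefore still differ.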

Additional observations from a re-analysis of the deposited data

How the results depend on the processing

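The direction of each of the 8 rows' differences held under all 14 alternatives in which the row was tested; Mir146 dropped out where dim rows were left out. The number of the 8 rows past the threshold was 2, became 3 with named rows only, ranged from 0 to 2 with 1 array left out and was 0 with the replicate number as a block. No label says whether the replicate numbers pair the arrays. Deviations of same-numbered arrays from their group means correlated at 0.069, -0.255 and -0.222. For arrays of different numbers the correlations ran from -0.142 (control replicate 1 with LPS replicate 3) to 0.266 (control replicate 2 with LPS replicate 3). With 3 arrays per group these values cannot decide it. In the fit with this replicate block, 7 rows of the table and 0 miR-155 targets passed as higher. Over the whole table, 80 rows were higher and 0 lower (2059 and 578 with unadjusted p below 0.05). With alternatives, 130 passed as higher with named rows only, where fewer rows are tested, and 132 with array weights. Leaving out both control replicate 2 and LPS replicate 3, 152 were higher and 67 lower, and with 1 array left out 15 to 76 were higher and 0 to 14 lower; these arrays' part was not tested. Without control replicate 2 the Scarna13 and Mir3069 row passed as the 1 other microRNA row (2.57), as it did without both arrays (1 row, 2.79), so with 1 array left out 0 to 1 were called. Called miR-155 targets ranged from 0 to 1 with 1 array left out. Called transcription factors were 1 without dim rows, with named rows only or with array weights, 2 without both arrays (Nfkb2 and Ets2) and 0 to 1 with 1 array left out. Quantile normalization moved the Vmp1 and Mir21a row from 0.88 to 0.69; the cause was not tested. Differences of the rows near the receptor level are limited by signal over background.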

Other observations

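Among the other microRNA rows, that of Scarna13 with Mir3069 read 4.34, 6.46 and 4.06 in control and 7.02, 6.96 and 6.33 after LPS, with control replicate 2 inside the LPS range. Its difference was 1.82 (SE 0.62, limma adjusted p = 0.63) with all arrays and 2.57 (adjusted p = 0.04) without control replicate 2. Scarna13 is a small nuclear RNA gene of Cajal bodies, and its signal cannot be told from that of Mir3069 in this row. Mir1970 read 3.1, 4.04 and 3.97 in control and 2.02, 2.46 and 3.2 after LPS, a difference of -1.14 (SE 0.37, adjusted p = 0.59). Mir1981 read 3.21, 4.38 and 2.43 in control and 1.82, 2.15 and 2.53 after LPS, a difference of -1.17 (SE 0.48, adjusted p = 0.76), with all LPS arrays under the receptor guide value.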
